A study of Mus musculus with 6 samples.

Results

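The 45 genes described here belong to the MHC class I antigen presentation pathway and to the interferon response. They were taken from a list of MHC class I pathway, interferon signalling and interferon-stimulated genes by their GENCODE M21 symbols, and a gene entered only if the deposited table had a row for it. They are 45 of the 24191 genes in that table. PolyA RNA was measured in mouse embryonic stem cells of the J1 line, which are derived from the inner cell mass of the early embryo. The 2 groups were wild-type cells (WT, 3 libraries) and cells with the genotype Mettl5 -/- (knockout, 3 libraries), both kept in serum and LIF, the cytokine that holds mouse embryonic stem cells undifferentiated, for 7 days. The Mettl5 enzyme adds a methyl group to an adenosine of the small subunit's ribosomal RNA. The labels do not say how the knockout was made, whether it is 1 clone, or whether replicates were separate cultures, so the p-values measure only the spread between these libraries, which may be technical.

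Cells display peptides on MHC class I molecules, each a heavy chain bound to beta-2-microglobulin. The peptides are cut by the proteasome, carried into the endoplasmic reticulum by the TAP transporter and loaded with the help of tapasin. Type I interferons signal through the kinases Jak1 and Tyk2 to a complex with Stat2 and Irf9 that binds the interferon-stimulated response element (ISRE). Interferon gamma signals through Jak1 and Jak2, and its target genes often carry the gamma-activated sequence (GAS). Embryonic stem cells are known for low MHC class I and a weak response to interferon compared with most differentiated cells.

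Promoters of members that moved in different directions carried the same short motifs. RefSeq (GRCm38.p6) gave promoter windows for 36 of the 45 members, with 41 windows in all. The 250 bases before each start were searched on both strands for a pair of GAAA repeats with any 2 bases between them, the core letters of an ISRE, and for TTCNNNGAA, the letters of a GAS. An ISRE match lay in 13 of the 41 windows, against 2.98% of all 32851 RefSeq promoters, and a GAS match in 5 of the 41, against 7.02%. The windows with an ISRE match belong to 13 of the 36 members. Of the 13 members with an ISRE match, 9 rose in the knockout and 4 fell (Bst2, Ifitm2, Rsad2 and Stat2) at a limma p, adjusted over all genes, under 0.05, and 33.6% of all genes tested rose and 28.9% fell. Of the 23 with a window and no ISRE match, 13 rose, 5 fell and 5 did not pass the test. A match describes the letters only and is not a measured binding site.

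The windows below were chosen to show a strong riser with overlapping matches (Isg15), a gene that fell with both motifs (Bst2), 3 neighbouring guanylate-binding protein genes, the MHC class I light chain (B2m) and the regulator Irf1. Each is read 5′ to 3′ on the gene's strand and ends at the start site, or just before the first annotated exon base in B2m and Gbp3. Gbp3 and Irf1 each have another RefSeq window, with starts at 142560356 and 53770473. Neither of those windows holds an ISRE or GAS match, and they were left out here for that reason. Capitals mark ISRE and GAS matches on either strand, and matches that overlap or touch run together. In Isg15 3 ISRE matches overlap, in Gbp3 2 overlap, and in Bst2 2 ISRE matches overlap, the first of which also overlaps a GAS match.
Isg15, chr4:156200819-156200968, minus strand: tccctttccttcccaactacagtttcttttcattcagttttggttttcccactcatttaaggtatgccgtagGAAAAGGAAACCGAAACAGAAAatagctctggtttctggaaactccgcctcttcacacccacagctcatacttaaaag
Bst2, chr8:71537473-71537622, minus strand: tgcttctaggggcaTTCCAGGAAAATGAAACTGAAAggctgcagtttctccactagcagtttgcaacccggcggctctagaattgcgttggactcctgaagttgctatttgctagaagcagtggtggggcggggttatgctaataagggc
Gbp7, chr3:142530186-142530335, plus strand: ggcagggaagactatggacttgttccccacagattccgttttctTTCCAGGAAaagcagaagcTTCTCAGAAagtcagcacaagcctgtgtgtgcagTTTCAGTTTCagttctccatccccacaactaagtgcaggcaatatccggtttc
Gbp3, chr3:142559894-142560025, plus strand: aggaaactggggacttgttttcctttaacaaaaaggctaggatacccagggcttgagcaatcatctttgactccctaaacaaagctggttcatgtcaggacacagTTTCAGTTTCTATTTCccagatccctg
Gbp2b, chr3:142594697-142594846, plus strand: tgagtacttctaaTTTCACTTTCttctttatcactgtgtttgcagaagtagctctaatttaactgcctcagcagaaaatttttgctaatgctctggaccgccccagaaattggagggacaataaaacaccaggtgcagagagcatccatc
B2m, chr2:122147537-122147685, plus strand: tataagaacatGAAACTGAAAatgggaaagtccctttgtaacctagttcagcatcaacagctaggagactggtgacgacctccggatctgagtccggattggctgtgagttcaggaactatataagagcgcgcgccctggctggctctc
Irf1, chr11:53769864-53770013, plus strand: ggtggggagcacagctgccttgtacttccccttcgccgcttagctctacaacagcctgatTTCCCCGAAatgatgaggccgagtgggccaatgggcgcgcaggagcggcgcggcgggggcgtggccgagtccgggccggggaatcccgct

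Mettl5 checked the labels. It lies on mm10 chromosome 2 from 69871198 to 69885615 on the minus strand. On the TPM scale WT libraries held 50.3, 48.6 and 48.7 of it and knockout libraries 3.65, 3.58 and 3.32, with a log2 fold change of -3.73 (SE 0.0522, limma adjusted p 5.4e-11). The TPM scale is the deposited per-length column, on which levels of different genes can be compared. Fold changes come from the other column, headed scaled reads per base and called scaled reads here. They are knockout minus WT on the log2(scaled reads + 1) scale, which understates changes of low genes. A gene is said to rise or fall where the limma p adjusted over all genes is under 0.05. Depth, estimated only roughly from the scaled reads, was 38550000 to 59640000 fragments per library. The marker lists of other cell types moved as well, in summed level on the TPM scale. The 8 trophectoderm markers reached a sum of 65.2 to 66.6 in WT against 1527 to 1586 in the knockout, 7 of them higher and Elf5 not called, and the keratin genes Krt8 and Krt18 alone were at means of 782 and 737 in the knockout. The 12 fibroblast markers summed to 16.9 to 19.7 and 38.7 to 39.9, 9 higher and 2 lower (Thy1 and Pdgfra). The 8 myeloid and antigen-presenting cell markers summed to 14.4 to 16.3 and 17.5 to 18.5, 4 higher and 1 lower (Itgam). The 8 haematopoietic and lymphoid markers reached a sum of 23 to 24.4 in WT against 12.7 to 13.7 in the knockout, 5 lower and 0 higher, with the pan-leukocyte gene Ptprc at 0.0739 and 0.0665. The 6 primitive endoderm markers summed to 29.2 to 30.96 and 11.6 to 12.5, 5 lower and 0 higher. The 7 endothelial markers summed to 41.1 to 41.8 and 22.1 to 23.2, 3 lower, Pecam1 among them with 28.9 and 9.53, and 2 higher (Kdr and Eng). The 10 pluripotency markers summed to 5524 to 5923 and 5044 to 5483, 7 lower, 1 higher (Dppa5a) and 2 not called. Their median log2 fold change was -0.49, and 2 fell by 1 or more, Zfp42 (-1.24) and Klf4 (-1.05). The sum is weighted toward the abundant Dppa5a and Pou5f1, at 0.31 and -0.09. No marker with a row was at 0 in all libraries, and 9 other listed markers had no row and are not analysed here. The part of these markers in the results below was not tested, and in bulk RNA fewer cells of a type and less RNA per cell cannot be told apart.

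Over all 24183 genes tested, 62.6% passed the threshold, 33.6% higher and 28.9% lower in the knockout. Rescaling the libraries to equal totals changed these counts from 8137 higher and 6998 lower to 6309 and 9147, and moved the median of all genes from 0.00 to -0.15. All 45 members entered the test. Of them, 25 rose (55.6%), 10 fell (22.2%) and 10 did not pass. With libraries rescaled to equal totals 23 were higher and 14 lower: Ddx58, Rnf213, Parp14 and Cd74 were gained as lower, and H2-K1 and H2-T23 lost their call. The members' median log2 fold change was 0.50, and 0.17 on the log2(value + 1) scale of the TPM column. A rise by a log2 fold change of 1 or more was found for 17 members (37.8%), against 11.4% of all genes, and a fall of that size for 0 members, against 9.93%. The 3 knockout libraries all lay above the 3 WT libraries in scaled reads for 24 members, against 35.8% of all genes, and all below for 9, against 32.1%. The rule names genes and asks only for a row in the table, but the list was drawn up with earlier results of these data known, so these counts describe the members and are no independent evidence. The lowest by mean scaled reads were Mx1 at 7.11, Irf7 at 8.92 and Ifi27 at 10.5, and 6 members had a mean under 20.

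**Figure D1:**
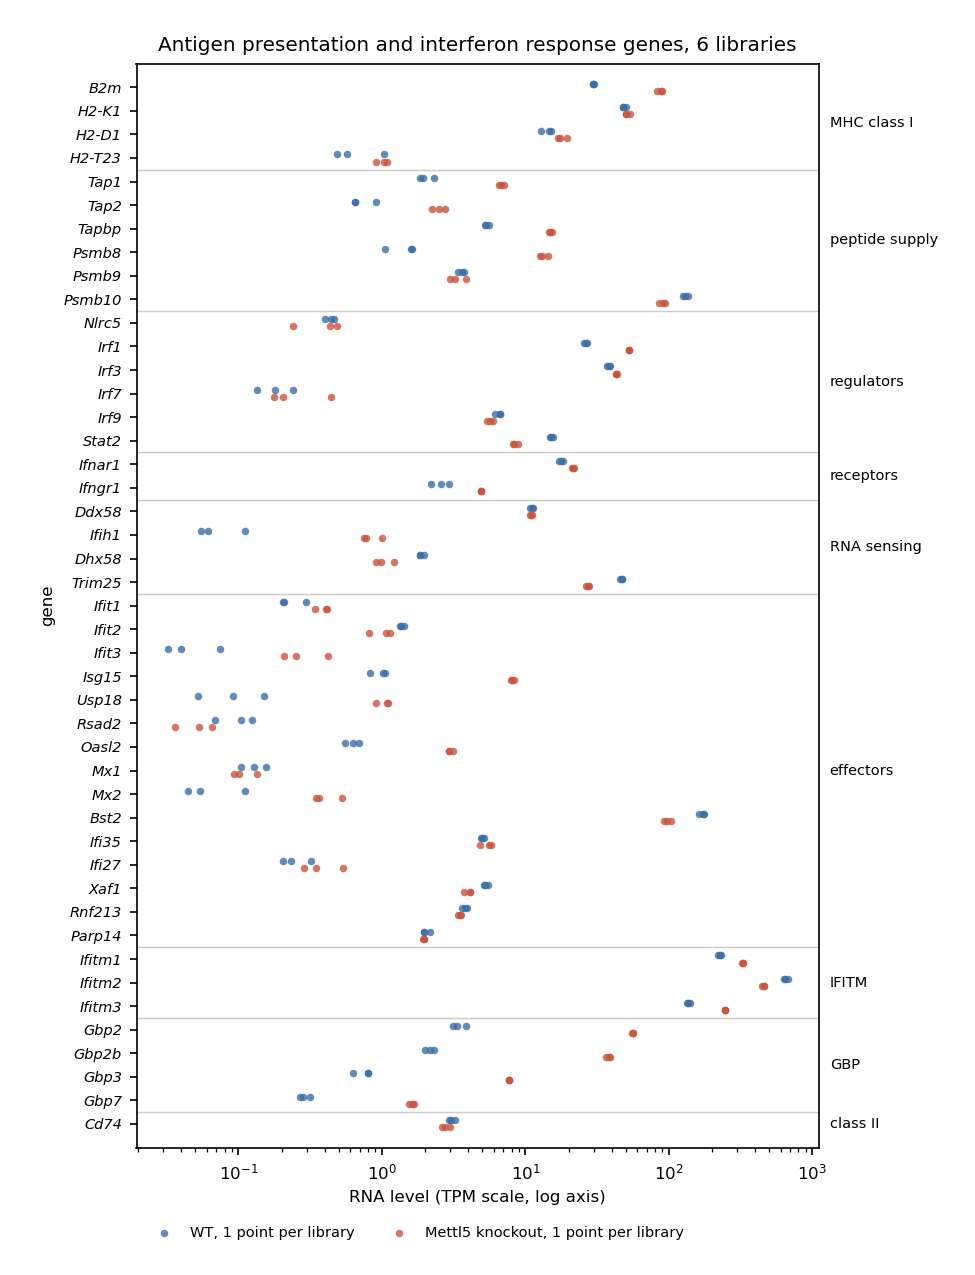
RNA level of the 45 genes on the TPM scale (log axis), 1 point per library, with WT in blue and Mettl5 knockout in red, grouped by role. Mean levels were under 0.1 for Ifih1, Ifit3, Usp18, Mx2 and Rsad2 in WT and for Rsad2 in the knockout. The highest point is 676 (Ifitm2 in WT), and the red points of the GBP group lie far to the right of the blue ones.

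The guanylate-binding proteins had the largest changes of any group of members. These interferon-inducible GTPases attack the membranes of intracellular pathogens and their vacuoles. The 4 members lie together on chromosome 3, on the plus strand between 142530342 and 142638008, and all rose. Gbp2 went from 3.83, 3.13 and 3.34 in WT to 56.4, 56.4 and 55.3 in knockout libraries on the TPM scale. Its log2 fold change of 4.08 (SE 0.0654, limma adjusted p 1.2e-10) was close to that of its neighbour Gbp2b. Gbp2b went from 2.16, 2.01 and 2.30 to 36.4, 38.6 and 38.2, a log2 fold change of 4.18 (SE 0.0515, limma adjusted p 3e-11). In both genes every knockout library was more than 10 times above every WT library. Gbp3 was at 0.632, 0.803 and 0.801 in WT and at 7.73, 7.74 and 7.68 in knockout, a log2 fold change of 3.41 (SE 0.121, limma adjusted p 1.64e-08). Gbp7, the lowest of the 4, went from 0.268, 0.283 and 0.317 to 1.54, 1.69 and 1.62, a log2 fold change of 2.51 (SE 0.0956, limma adjusted p 2.54e-08). Summed on the TPM scale, the 4 genes held 6.23 to 6.88 in WT and 102 to 104 in the knockout, a 15.6-fold difference, most of it from Gbp2 and Gbp2b. Among guanylate-binding protein genes outside the members, Gbp5, also on chromosome 3, was not called, at 0.02 (limma adjusted p 0.967), and on chromosome 5 Gbp4 rose by 0.80, Gbp9 by 0.47, Gbp6 by 2.43, Gbp10 by 2.62 and Gbp11 by 1.59, the last 3 from WT means under 0.05 on the TPM scale. The printed windows of Gbp7, Gbp3 and Gbp2b each have at least 1 ISRE match, and Gbp7 has 2 GAS matches besides. The other RefSeq window of Gbp3, not printed, has neither motif. Sequence shared with other genes was 4.85% of the 31-base words of Gbp2, 4.15% of Gbp2b and 5.64% of Gbp3, and 14.7% of Gbp7, mostly with the overlapping model Gm43802.

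In the MHC class I complex the light chain rose far more than the classical heavy chains. B2m, which encodes beta-2-microglobulin (chromosome 2, 122147686 to 122153083), had a level of 29.5, 29.6 and 30.3 in WT and of 82.7, 88.6 and 89.1 in knockout libraries. The groups lay far apart, with a log2 fold change of 1.61 (SE 0.0391, limma adjusted p 1.48e-09). H2-D1, a classical heavy chain, went from 14.7, 15.1 and 12.8 to 19.5, 17.4 and 16.8, a log2 fold change of 0.42 (SE 0.0779, limma adjusted p 0.00109). H2-K1, the other classical heavy chain, was at 50.5, 47.5 and 47.8 in WT and at 53.2, 50.2 and 50.4 in knockout. The H2-K1 groups overlapped on this scale, and its log2 fold change of 0.14 (SE 0.0376, limma adjusted p 0.00825) became -0.01 with libraries rescaled to equal totals. H2-T23, the non-classical heavy chain Qa-1, went from 0.575, 0.487 and 1.03 to 0.909, 1.04 and 1.09, with overlapping groups. It had a log2 fold change of 0.66 (SE 0.250, limma adjusted p 0.0452), and it missed the threshold when any library but WT replicate 3 was left out (limma adjusted p 0.0610 to 0.149). It also missed it with equal totals, the TPM column, centring per chromosome or no intensity trend (limma adjusted p 0.0698 to 0.111). The summed level of H2-K1 and H2-D1 was 1.1 times higher in the knockout. The level of B2m divided by that sum was therefore 0.452, 0.473 and 0.499 in WT and 1.14, 1.31 and 1.32 in knockout libraries, with no overlap. H2-K1, H2-D1 and H2-T23 share 22.8%, 26.9% and 25.8% of their 31-base words with other genes, so their reads may be divided differently by the quantification, while B2m shares none.

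The peptide transporter and its bridge to MHC class I rose together. Tap1 and Tap2 encode the chains of the TAP transporter, and Tapbp encodes tapasin. Tap1 was at 1.84, 1.93 and 2.29 in WT and at 7.14, 6.53 and 6.81 in knockout, a log2 fold change of 1.81 (SE 0.0824, limma adjusted p 8.49e-08). Tap2 went from 0.651, 0.909 and 0.646 to 2.23, 2.48 and 2.75, a log2 fold change of 1.78 (SE 0.237, limma adjusted p 0.00013). Tapbp, the highest of the 3, went from 5.59, 5.30 and 5.24 to 15.3, 14.7 and 14.9, a log2 fold change of 1.55 (SE 0.0646, limma adjusted p 4.67e-08). None of the 3 had overlapping groups, and their knockout levels were 3.38, 3.38 and 2.79 times the WT levels. Tapbp shares 26.9% of its 31-base words, mostly with the antisense model Gm19412, and Tap2 shares 14.3%, mostly with Gm15821, a model on the opposite strand.

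The 3 immunoproteasome subunits moved in 3 different ways. Each replaces a catalytic subunit of the standard proteasome and shifts its cuts toward peptides that fit MHC class I: Psmb8 replaces Psmb5, Psmb9 replaces Psmb6 and Psmb10 replaces Psmb7. Psmb8 was at 1.61, 1.06 and 1.60 in WT and at 13.1, 14.4 and 12.7 in knockout, a log2 fold change of 3.31 (SE 0.148, limma adjusted p 7.61e-08). Psmb9 was at 3.70, 3.37 and 3.60 in WT and at 3.23, 2.96 and 3.83 in knockout, and did not pass the test, with a log2 fold change of -0.02 (SE 0.121, limma adjusted p 0.869). Psmb10, by far the highest of the 3, went from 137, 126 and 129 to 85.8, 93.9 and 91.5, a log2 fold change of -0.46 (SE 0.0426, limma adjusted p 1.02e-05). Only Psmb8 and Psmb10 had groups that did not overlap. Psmb10 lies on chromosome 8, where the median gene was at -0.38, and with log2 values centred per chromosome its fold change was -0.10 (limma adjusted p 0.0848).

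The standard counterparts changed little beside Psmb8. Psmb5 had a log2 fold change of 0.30, Psmb6 of -0.16 and Psmb7 of 0.14, all past the threshold, although Psmb7 was at -0.01 with libraries rescaled to equal totals and Psmb6 at 0.24 with centring per chromosome. Expressed as a share of each pair on the TPM scale, Psmb8 was 0.640% ± 0.166 of Psmb8 plus Psmb5 in WT and 4.91% ± 0.493 in knockout (SD, n = 3 each). Psmb9 was 0.430% ± 0.0173 of Psmb9 plus Psmb6 in WT and 0.473% ± 0.0629 in knockout. Psmb10 was 26.4% ± 0.674 of Psmb10 plus Psmb7 in WT and 18.9% ± 0.959 in knockout. Standard subunits thus kept the larger share of all 3 pairs in both genotypes at the RNA level.

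**Figure D2:**
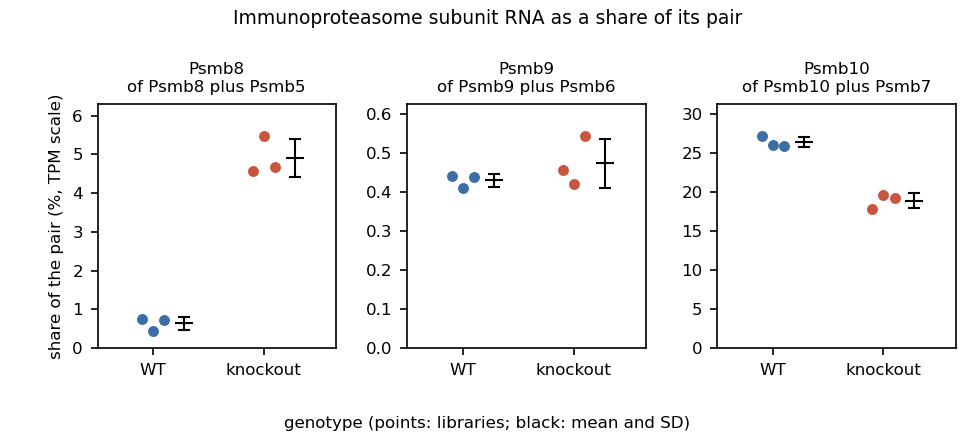
Share of each immunoproteasome subunit in the summed RNA of itself and the standard subunit it replaces (percent, TPM scale), with 1 point per library and the mean and SD in black. The knockout share is higher for Psmb8 (4.91% against 0.640%), overlaps WT for Psmb9 and is lower for Psmb10 (18.9% against 26.4%), and each panel has its own axis from 0.

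Tap1 and Psmb9 are divergent neighbours on chromosome 17. Their RefSeq starts, 34187556 for Tap1 on the plus strand and 34187330 for Psmb9 on the minus strand, are 226 bases apart, and the GENCODE models overlap. Tap1 rose by 1.81 and Psmb9 stood at -0.02. Psmb8 starts beyond the other end of Tap1 and Tap2 follows it, so that 3 of the 4 members between 34181987 and 34216321 rose. Libraries were stranded per the labels, but the sources used here do not give the strand setting of the quantification. Words shared between the pair make up 3.26% of Tap1 and 4.79% of Psmb9. Psmb8 shares 13.7% of its words, mostly with Gm20496, an overlapping model on the opposite strand.

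Among the transcriptional regulators, Irf1 rose and the partners of the type I interferon complex did not. Irf1 (chromosome 11, 53770014 to 53778374), an activator of class I pathway and interferon gamma responsive genes, was at 26.7, 25.7 and 26.5 in WT and at 52.3, 52.3 and 52.3 in the knockout. This was a log2 fold change of 1.06 (SE 0.0339, limma adjusted p 8.51e-09), although it lies on chromosome 11, where the median gene was at -0.41, and it was 1.46 after centring per chromosome. Stat2, the subunit that carries the activation domain of the complex, fell from 15.5, 14.9 and 15.0 to 8.26, 8.91 and 8.35, a log2 fold change of -0.76 (SE 0.0544, limma adjusted p 1.77e-06). Stat2 groups lay well apart. Irf9, which gives the complex its DNA contact, was at 6.67, 6.61 and 6.15 in WT and at 5.40, 5.67 and 5.96 in knockout, a log2 fold change of -0.14 (SE 0.0532, limma adjusted p 0.0475). Irf9 groups overlapped in scaled reads, and the call was lost without WT replicate 1 or 2 or without knockout replicate 1 or 2 (limma adjusted p 0.0976 to 0.148), with no intensity trend (adjusted p 0.0971), with voom-style weights (adjusted p 0.0511) and with a replicate block (adjusted p 0.0723). Irf3, the factor activated by RNA and DNA sensing, went from 39.0, 36.9 and 38.2 to 43.0, 42.9 and 43.2, a log2 fold change of 0.25 (SE 0.0356, limma adjusted p 0.000205).

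Irf7 and Nlrc5 were low and did not pass the test. Irf7, which amplifies type I interferon production, was at 0.178, 0.240 and 0.135 in WT and at 0.442, 0.203 and 0.175 in knockout. Nlrc5, the transactivator of MHC class I genes, was at 0.466, 0.444 and 0.401 in WT and at 0.432, 0.241 and 0.488 in knockout. The groups of both overlapped, with log2 fold changes of 0.50 (SE 0.395, limma adjusted p 0.302) for Irf7 and -0.17 (SE 0.262, limma adjusted p 0.587) for Nlrc5. The rise of B2m, Tap1 and Tapbp was thus measured beside overlapping Nlrc5 levels, and the wide standard error of Nlrc5 leaves its change poorly known.

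Both receptor chains among the members rose. Ifngr1, the ligand-binding chain of the interferon gamma receptor, was at 2.95, 2.59 and 2.20 in WT and at 4.91, 4.90 and 4.91 in knockout, a log2 fold change of 1.00 (SE 0.119, limma adjusted p 5.99e-05). Ifnar1, a chain of the type I interferon receptor, went from 18.3, 17.2 and 17.6 to 21.1, 21.8 and 21.5, a log2 fold change of 0.33 (SE 0.0372, limma adjusted p 3.83e-05). Neither overlapped between groups, and the rise of Ifngr1 was the larger on this scale.

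The RNA sensors did not move as a group. Ifih1 encodes MDA5, the sensor of long double-stranded RNA, and was at 0.0549, 0.0616 and 0.111 in WT and at 0.778, 0.746 and 1.01 in knockout. Its log2 fold change of 3.47 (SE 0.263, limma adjusted p 2.63e-06) started from a mean of 11.99 scaled reads. Ddx58, which encodes the sensor RIG-I, was at 11.1, 10.8 and 11.3 in WT and at 10.8, 11.1 and 10.9 in knockout, and did not pass, with a log2 fold change of 0.04 (SE 0.0410, limma adjusted p 0.444). Dhx58, which encodes the related regulator LGP2, fell from 1.85, 1.98 and 1.83 to 0.906, 1.21 and 0.990, a log2 fold change of -0.79 (SE 0.161, limma adjusted p 0.00202). Trim25, a ubiquitin ligase linked to RIG-I signalling, fell from 47.0, 45.8 and 46.8 to 27.4, 26.3 and 27.9, a log2 fold change of -0.73 (SE 0.0279, limma adjusted p 2.68e-08). Dhx58 and Trim25 lie on chromosome 11. Centred per chromosome, Trim25 was at -0.33 and still past the threshold, while Dhx58 was at -0.39 with a limma adjusted p of 0.0614.

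Isg15 and the enzyme that removes it both rose, from low WT levels. Isg15 (chromosome 4, 156199424 to 156200818, minus strand) encodes a ubiquitin-like modifier and was at 1.02, 1.05 and 0.832 in WT and at 7.96, 8.03 and 8.27 in knockout. Isg15 thus had a log2 fold change of 3.11 (SE 0.119, limma adjusted p 2.67e-08). Usp18, which cleaves Isg15 from its targets and dampens type I interferon receptor signalling, went from 0.151, 0.0525 and 0.0909 to 1.10, 1.08 and 0.908, a log2 fold change of 3.13 (SE 0.337, limma adjusted p 2.95e-05). Usp18 lies on chromosome 6, where the median gene was at -0.29, and its WT mean was 2.72 scaled reads. No WT library of either gene reached a knockout library.

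Of the other antiviral effectors, 4 rose. Oasl2, an oligoadenylate synthetase-like protein, went from 0.630, 0.555 and 0.691 to 2.93, 3.11 and 2.92, a log2 fold change of 2.28 (SE 0.147, limma adjusted p 8.71e-07). Mx2, a dynamin-like GTPase that the annotation lists as a polymorphic pseudogene, went from 0.111, 0.0446 and 0.0540 to 0.349, 0.363 and 0.524, a log2 fold change of 2.56 (SE 0.334, limma adjusted p 0.000113). Its relative Mx1 was at 0.128, 0.104 and 0.155 in WT and at 0.101, 0.135 and 0.0928 in knockout, and did not pass, with a log2 fold change of -0.15 (SE 0.316, limma adjusted p 0.694). Mx2 thus had separate groups and Mx1 overlapping ones, with 7.96% of the words of Mx2 shared with Mx1.

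The IFIT genes, whose proteins bind foreign RNA, lie together on chromosome 19 and moved apart. Ifit3 went from 0.0740, 0.0320 and 0.0396 to 0.253, 0.207 and 0.423, a log2 fold change of 2.41 (SE 0.374, limma adjusted p 0.000357), with 61.8% of its words shared with its near copy Ifit3b. Ifit1 went from 0.207, 0.203 and 0.294 to 0.343, 0.411 and 0.408, a log2 fold change of 0.77 (SE 0.193, limma adjusted p 0.00639). Ifit2, the highest of the 3, fell from 1.33, 1.43 and 1.35 to 0.816, 1.14 and 1.07, a log2 fold change of -0.40 (SE 0.130, limma adjusted p 0.0227). The Ifit2 call was lost without WT replicate 2 (limma adjusted p 0.0678) and without knockout replicate 1 (limma adjusted p 0.0512), and with no intensity trend (limma adjusted p 0.0510).

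Bst2 fell from a high level. It encodes tetherin, which holds budding virus at the cell surface, and was at 174, 174 and 161 in WT and at 104, 92.7 and 96.2 in knockout libraries. Bst2 had a log2 fold change of -0.72 (SE 0.0446, limma adjusted p 6.81e-07), and -0.35 with centring per chromosome, still past the threshold. Bst2 (chromosome 8, 71534255 to 71537456) was the highest effector in both genotypes, and its printed window has the same 10 ISRE letters, GAAACTGAAA, as that of B2m, which rose. Xaf1, a proapoptotic interferon-induced gene on chromosome 11, fell from 5.51, 5.24 and 5.14 to 4.08, 3.76 and 4.09, a log2 fold change of -0.34 (SE 0.0893, limma adjusted p 0.00898) that became 0.06 with centring per chromosome. Rsad2, which encodes viperin, was at 0.0685, 0.124 and 0.105 in WT and at 0.0359, 0.0532 and 0.0658 in knockout. Its log2 fold change of -0.83 (SE 0.317, limma adjusted p 0.0454) rested on a mean of 15.9 scaled reads and lost its call without WT replicate 2 or 3 or without knockout replicate 1 or 2 (limma adjusted p 0.0785 to 0.151). It also lost it with the TPM column, a pseudocount of 0.1 or no intensity trend (limma adjusted p 0.0502 to 0.0802).

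The other 4 effectors did not pass. Ifi35, which binds the protein of Nmi, was at 4.90 to 5.14 in WT and 4.80 to 5.72 in knockout, and Ifi27, a mitochondrial interferon-induced protein, at 0.206 to 0.321 and 0.288 to 0.536. Rnf213, a large ubiquitin ligase, was at 3.61 to 3.92 in WT and 3.41 to 3.57 in knockout, and Parp14, an ADP-ribosyltransferase, at 1.95 to 2.18 and 1.94 to 1.97. Groups overlapped in scaled reads for all 4, although those of Rnf213 did not on the TPM scale, and their log2 fold changes were 0.16 (Ifi35), 0.61 (Ifi27), -0.06 (Rnf213) and 0.00 (Parp14). Ifi35 and Rnf213 lie on chromosome 11 and passed the threshold as higher, at 0.55 and 0.33, with centring per chromosome. With libraries rescaled to equal totals Rnf213 passed as lower instead, at -0.22 (limma adjusted p 0.000607), as did Parp14 at -0.16 (limma adjusted p 0.0422). Cd74, the MHC class II invariant chain, was at 2.94, 3.24 and 3.01 in WT and at 2.96, 2.75 and 2.61 in knockout, with a log2 fold change of -0.08 (SE 0.0834, limma adjusted p 0.407), which became -0.33 and passed with centring per chromosome.

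The interferon-induced transmembrane proteins block virus entry and are abundant in embryonic stem cells. They changed in their shares of a sum that was almost constant on the TPM scale. They lie together on chromosome 7. Ifitm1 rose from 232, 218 and 228 to 321, 329 and 327, a log2 fold change of 0.60 (SE 0.0304, limma adjusted p 1.69e-07). Ifitm3 rose from 135, 139.8 and 133 to 246, 247 and 248, a log2 fold change of 0.94 (SE 0.0265, limma adjusted p 3.89e-09). Ifitm2, the highest member of all 45, fell from 649, 634 and 676 to 447, 459 and 457, a log2 fold change of -0.45 (SE 0.0329, limma adjusted p 2.19e-06). None of the 3 had overlapping groups. Their sum on the TPM scale was 992 to 1038 in WT and 1013 to 1034.5 in the knockout, a ratio of 1.01. In it the share of Ifitm2 was 63.9% to 65.2% in WT and 44.1% to 44.3% in the knockout. Mean scaled reads, which were not summed, went from 7557 to 11459 (Ifitm1), 18805 to 13801 (Ifitm2) and 4097 to 7836 (Ifitm3). Ifitm2 shares 55.5% of its 31-base words with other genes, mostly with the overlapping model Gm45717, and Ifitm3 and Ifitm1 share 20.5% and 11.6%.

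**Figure D3:**
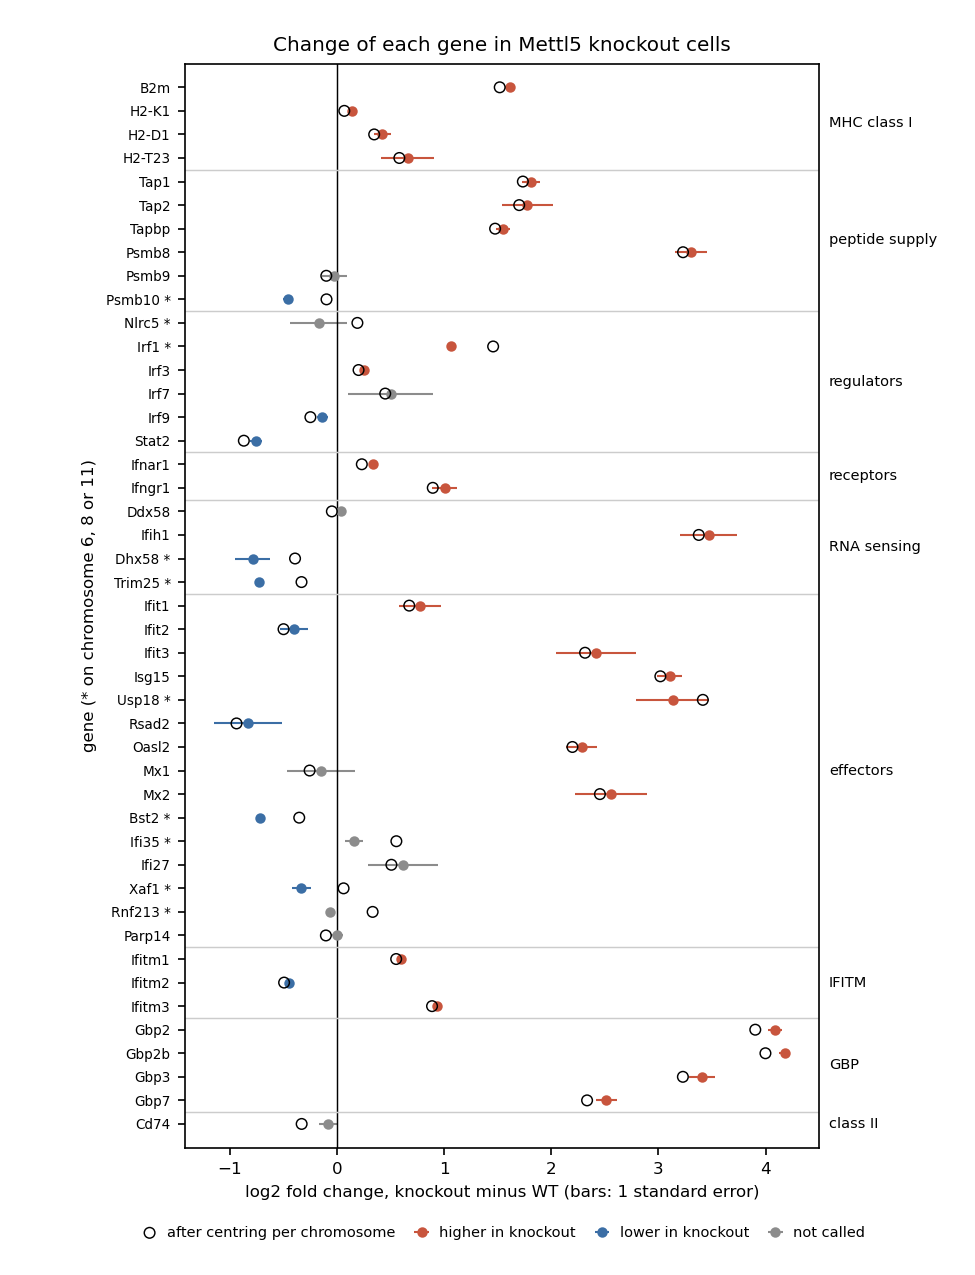
Log2 fold change of each gene, knockout minus WT, on the log2(scaled reads + 1) scale, with bars of 1 standard error, coloured by call, and open circles for the value after centring per chromosome. Genes marked with an asterisk lie on chromosome 6, 8 or 11; their open circles sit to the right of the filled ones, and Xaf1, Nlrc5 and Rnf213 cross 0, as Ddx58 on chromosome 4 does in the other direction.

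Position moved with the direction of change. Genes on chromosomes 6, 8 and 11 were lower in general: of 4185 genes tested there, 53.3% fell and 16.1% rose, against 23.7% and 37.4% of the 19653 elsewhere. Whether the 2 lines differ in the copy number of these chromosomes was not tested, and such a difference and a change in regulation of genes there cannot be told apart in these values. Of the 10 members on those chromosomes, 2 rose (Irf1 and Usp18), 5 fell (Psmb10, Bst2, Dhx58, Trim25 and Xaf1) and 3 did not pass. Of the other 35 members, 23 rose, 5 fell (Irf9, Stat2, Ifit2, Rsad2 and Ifitm2) and 7 did not pass. With centring per chromosome 25 members were higher and 8 lower, beside 7669 higher and 7029 lower of all 24183 genes tested. All 17 members that rose by 1 or more (log2) kept their call under that centring.

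Sequence shared with other genes also differed between the calls. Over 10% of the 31-base words were shared in 14 members, of which 12 rose, 1 fell and 1 did not pass, beside 33.6% higher and 28.9% lower over all genes. Of the 31 members with at most 10% shared, 13 rose, 9 fell and 9 did not pass. Its part in the result was not tested. B2m, Tap1, Irf1, Ifngr1, Ifih1, Usp18, Oasl2, Mx2, Gbp2, Gbp2b and Gbp3, all with at most 10% shared, were among the 17 with the larger rises.

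The rest of the pathway was followed in 189 other listed genes, of which 153 were tested: 75 rose, 39 fell and 39 did not pass, with a median of 0.15. The shares over all genes, 33.6% higher and 28.9% lower, are the background for this count and for those of the lists that follow. The 21 listed interferon genes had no row in the table and are not analysed here. Among the other receptors, kinases and STATs, 6 of 9 rose and 3 fell. Il10rb, a receptor chain shared by interferon lambda, was at 2.50 on the log2 scale. Ifnlr1, the other chain of the interferon lambda receptor, was at -0.75. Jak2, a kinase of the interferon gamma receptor, was at 1.99 and Tyk2, a kinase of the type I receptor, at -0.72. Jak1, common to both pathways, was at 0.72 and Ifngr2, the second chain of the interferon gamma receptor, at 1.04. Of the 14 genes listed as feedback inhibitors 7 rose and 3 fell. Not all have that role, and the interferon-induced Isg20 is among the risers, at 3.52. Socs3, which blocks JAK signalling, was at -1.40, and its relative Socs1 was not called, at 0.10. The phosphatase gene Ptpn11 was at 0.79 and Irf2bp2 at 0.62.

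Among 16 other interferon regulatory factors and MHC transactivator partners, 7 rose and 3 fell. Nfkb2 was at 1.12, Rela at 0.92 and Creb1 at 0.69. The nucleic acid sensing genes divided evenly, with 12 of 28 higher and 12 lower. The 3 with the smallest p-values all fell: Aim2, a sensor of cytosolic DNA, was at -1.13, Rnaseh2a at -0.50 and Oas1c at -2.19. Oas2 and Oas3, oligoadenylate synthetases related to the member Oasl2, were at -1.26 and -1.58. Of the other listed genes of that family, Oas1a rose, at 0.47. Oas1b, Oas1g and Oasl1 fell, at -0.66, -0.75 and -1.16. Of the 26 genes listed as other peptide loading and class I genes 14 rose and 7 fell. The list also holds Psmb5, Psmb6, Psmb7 and H2-Ke6, which is not a class I gene and fell, at -0.98. Pdia3, a chaperone of the loading complex, was at 1.12, the class I gene H2-Q4 at 1.01 and Cd1d1, which presents lipids, at -1.63. Of 60 other interferon-induced genes 29 rose and 11 fell, among them the immunity-related GTPases Iigp1 at 5.20 and Irgm1 at 2.15, and Parp12 at -1.11. Iigp1 was at a mean of only 0.496 on the TPM scale in the knockout.

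**Figure D4:**
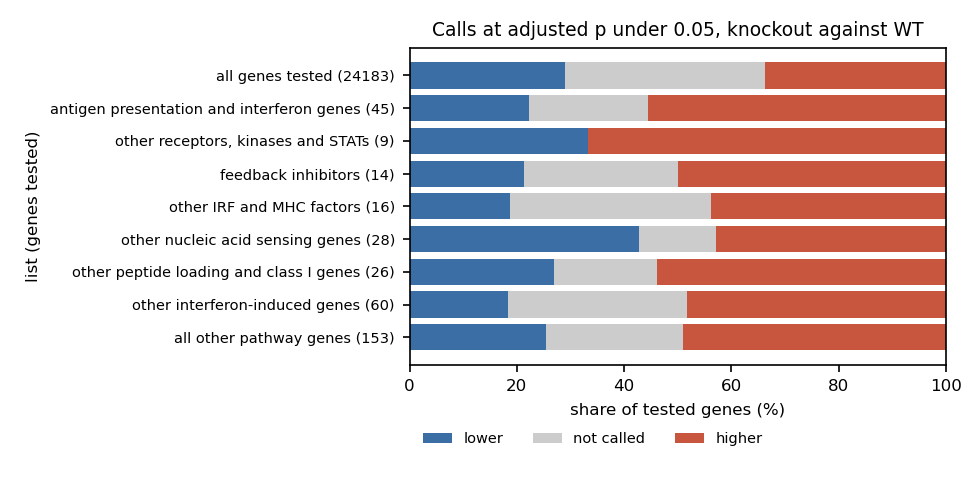
Share of tested genes that were lower (blue), not called (grey) or higher (red) in the knockout at an adjusted p under 0.05, for all genes, for the 45 members and for each list of other pathway genes, with the number tested in brackets. The members have 55.6% higher against 33.6% of all genes, and the nucleic acid sensing list has equal numbers higher and lower.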

How the data were processed

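PolyA RNA was measured in 6 libraries, 3 per genotype, grouped by the sample titles. The authors used kallisto and sleuth with mm10, per the submitters' processing notes; the sources used here do not give versions, annotation or strand setting. Per the file headers, each gene and library has 2 deposited signal values, scaled reads per base (called scaled reads here) and TPM. Scaled reads were not taken as raw counts of reads. Their relation to TPM varied widely between genes, with WT means of 288 and 2.02 for Tap1 and of 9.53 and 0.736 for Tap2. The scaled reads held fractions: in each library 29.9% to 32.8% of those between 0.5 and 40 were whole multiples of a common step (tolerance 0.02), and depth was estimated from that step. Totals of the deposited TPM signal ranged from 969838 to 978167 for WT and from 1019930 to 1022473 for knockout, so it is called the TPM scale.

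The log2(scaled reads + 1) values were fitted with limma 3.58.1 in R 4.3.3, two-sided and with an intensity trend. Genes averaging 1 scaled read or more entered (24183), with Benjamini-Hochberg adjustment over all of them and a threshold of 0.05. The script was tested on simulated data. Other computations used Python 3.11.15, pandas 2.3.3, numpy 2.4.6 and matplotlib 3.10.9. Symbols and coordinates came from GENCODE M21 on GRCm38 (mm10), promoters from RefSeq GRCm38.p6. Shared sequence is the percent of distinct 31-base words of a gene's GENCODE transcripts that occur in another gene's. The members and lists were chosen with earlier results of these data known. Named genes are Mettl5, all 45 members and, per pathway list, the 3 with the smallest p-values. Psmb5, Psmb6, Psmb7, Jak1, Ifngr2, Ifnlr1, Socs1, Isg20, H2-Ke6, Oas1a, Oas1b, Oas1g, Oasl1, Oas2, Oas3, the other Gbp genes and single markers were named after their values were seen. So were sequence partners of members. Some genes of the lists are not reported here. Alternatives changed the scaling, column, pseudocount, filter, chromosome centring, spread model, tested fold, replicate block and libraries.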

Additional observations from a re-analysis of the deposited data

How the results depend on the processing

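In all 17 alternatives 24 members kept their result and direction. Of these, 21 were called members, among them all 17 that rose by a log2 fold change of 1 or more. The others, Irf7, Mx1 and Ifi27, stayed not called. The 6 members under 20 scaled reads, Ifit3 and Usp18 included, did not enter with the filter of at least 20 scaled reads. Against a 1.5-fold change, 2869 genes were higher and 2178 lower, with 18 members higher and 3 lower. The members' median was 0.36 with libraries rescaled to equal totals (where the median of all genes was -0.15), 0.17 with the TPM column, 0.55 and 0.34 with pseudocounts of 0.1 and 10, 0.42 with at least 20 scaled reads and 0.52 with voom-style weights. With a library left out it was 0.36 to 0.60, members higher 24 to 25 and members lower 7 to 10. Signs turned with equal totals for H2-K1 (-0.013), Ddx58 (-0.12) and Psmb7 (-0.013), and with the TPM column for Ddx58 (-0.018). They turned with centring per chromosome for Nlrc5 (0.19), Ddx58 (-0.049), Xaf1 (0.060), Rnf213 (0.33) and Psmb6 (0.24). With a library left out Parp14 was at -0.029 to 0.051 (above 0 without WT replicate 2 or knockout replicate 2), Psmb9 at -0.13 to 0.056 and Nlrc5 at -0.37 to 0.13 (both above 0 without knockout replicate 2). The cause was not tested. Deviations of libraries with the same number correlated at -0.01, 0.04 and 0.04, so the numbers were not taken to pair them; with a replicate block 25 members were higher and 9 lower, 8183 genes higher and 6927 lower, and Irf9 alone of the called members lost its call (limma adjusted p 0.0723). The 6 members under 20 scaled reads had the lowest means in that column.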
